A study of Homo sapiens with 12 samples.

Results

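The comparison is of the VP16 clone of HT1080 cells before and after its tracer protein was switched on by withdrawal of doxycycline. It uses 4 of the 12 libraries of the study: 2 of uninduced cells and 2 of cells expressing the tracer, chosen by the labels for clone and treatment. HT1080 is a human fibrosarcoma line with mesenchymal character. All libraries measured total RNA by sequencing, as read counts per gene.

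The VP16 clone carries the m6A-Tracer joined to VP16, and a second clone carries the tracer joined to GFP. Uninduced cells of the VP16 clone were kept for 4 days in 50 ng/ml doxycycline. Cells of the tracer group had 3 days with doxycycline and then 24 h without it, to induce m6A-Tracer-VP16, and neither group received Shield1. A further group of the clone had the same withdrawal together with 500 nM Shield1, which induces Dam-LaminB1, and is used here for the estimate of the spread and for values set beside the others. The GFP clone went through the same schedule.

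In such a tet-off arrangement doxycycline holds the transgene silent, and removing the drug lets it be transcribed. The tracer is a protein that binds DNA methylated on adenine in GATC, a mark that Dam methyltransferase lays down and human cells normally lack. Dam fused to lamin B1 methylates the DNA that touches the nuclear lamina, and VP16 is a strong activation domain of herpes simplex virus that recruits the transcription machinery. Without Dam-LaminB1, the tracer therefore has no deliberately made sites to bind, and the comparison asks what the induction step itself does to the transcriptome. Expression of the tracer and removal of doxycycline took place together in these libraries and cannot be told apart. Each clone is 1 clone, and the tracer transgene itself was not analysed here, so its induction was not checked.

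The titles reuse the same 6 index sequences in a first and a second set, and each set holds 1 library of every group. Libraries are called by that set below, and a pair is the tracer library minus the uninduced library of the same set. Total counts of the 4 libraries were 18774905 and 22430689 for uninduced cells of sets 1 and 2 and 21297256 and 22936818 for the tracer. The series' design text calls the second library of a group a biological replicate but does not say whether it came from a separate culture, so the spread that the p-values rest on may be technical. The mesenchymal marker VIM ranged from 3606 to 4129 CPM (counts scaled to library size, a level not corrected for gene length) over the 6 libraries of the clone and FN1 from 1015 to 2584 CPM, while the epithelial markers CDH1, EPCAM, KRT19 and GRHL2 and the blood markers PTPRC, CD3E and SPI1 were at most 0.47 CPM. Other members of these lists were expressed: the tested epithelial genes, mainly KRT8 and KRT18, summed to 256.8 to 346.9 CPM over the 4 libraries compared, and the tested blood genes, mainly CD68 and LCP1, to 541.3 to 787.9 CPM.

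With the index set as a block and the 6 libraries of the VP16 clone in the fit, 139 of 16139 genes passed edgeR's quasi-likelihood test at an adjusted p under 0.05, which is 0.861% of the genes tested. Of these genes, 128 (0.793%) were higher in the tracer group than in uninduced cells and 11 (0.0682%) were lower. These calls depend on the block and on the libraries that give the spread: without the block, or with all 12 libraries in the fit, 0 genes passed, and 149 and 217 genes had an unadjusted p under 0.05. With only the 4 libraries compared, 838 genes passed, all 139 among them, and DESeq2 with the block called 21. Every one of the 139 genes had the same sign in each of these fits.

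The changes were small. The fitted difference was at least 2-fold for 15 of the 128 genes that rose and for none of the 11 that fell, and its median was 0.34 and -0.26 on the log2 scale. The 128 genes had a median level of 45.25 CPM against 18.45 CPM over all genes tested, and 123 of them were protein coding. The change was larger in index set 1 for 112 of the 128, with a median log2 difference of 0.40 in set 1 and 0.26 in set 2; over all genes tested, 57.8% had the larger change in set 1. In 69 of the 128 genes both tracer libraries were above both uninduced libraries, a pattern that 11.2% of all genes tested showed; in 6 of the 11 both were below, which 11.7% of all genes showed.

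**Figure D1:**
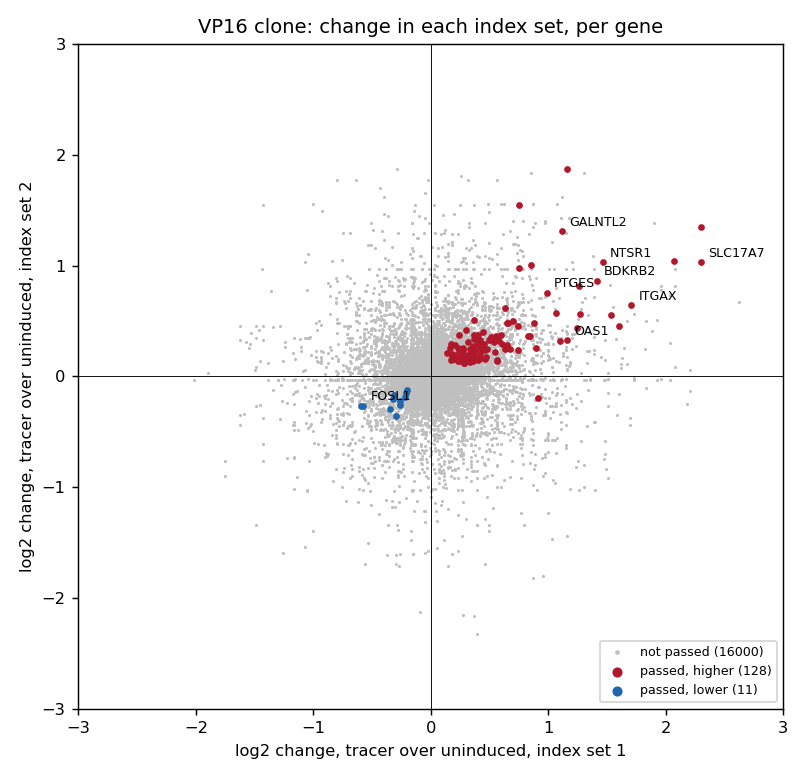
Log2 difference between the tracer and the uninduced library in index set 1 (horizontal axis) and index set 2 (vertical axis), 1 point per gene tested, with the 128 genes that rose in red and the 11 that fell in blue. The red points lie above 0 on both axes apart from IFI27, which is below 0 in set 2, and most lie closer to the horizontal axis than to the vertical one.

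When each of the 4 libraries was omitted from the fit in turn, 8 genes passed every time: PTGES, SEMA4B, LAMA5, ATP13A2, LRP1, JUP and FN1, which rose, and FOSL1, which fell. For 18 genes the call was shared by edgeR, DESeq2 and limma-voom, including PTGES, SEMA4B, LAMA5, ATP13A2, LRP1 and FOSL1. SEMA4B, ATP13A2 and LRP1 were singled out for this after their values were seen. Omission of a Dam-LaminB1 library was not part of the count of 8, and FOSL1 did not pass without that of set 1.

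PTGES encodes the inducible prostaglandin E synthase, the last enzyme on the way to prostaglandin E2, and lies at chr9:132500610-132515326 (GRCh37, as are all gene positions given). It was at 10.6 and 9.83 CPM in the uninduced libraries of sets 1 and 2 and at 21.1 and 16.7 CPM in the tracer libraries. Both tracer libraries were well above both uninduced ones, and the libraries with Dam-LaminB1 were also high, at 19.1 and 17.1 CPM. The fitted rise was 1.84-fold, with a log2 difference of 0.88 ± 0.10 (SE, n = 2 libraries per group, edgeR adjusted p = 3.9e-05).

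Among the genes named by the rule for the largest rise in both pairs were BDKRB2, OXTR and NTSR1. That rule takes only genes whose groups do not overlap, so their separation follows from the choice. Of all genes tested, 11.2% had both tracer libraries above both uninduced ones. BDKRB2, the bradykinin B2 receptor (chr14:96671016-96710666), had 2.08 and 2.61 CPM in uninduced cells and 5.69 and 4.83 CPM with the tracer. The groups did not overlap, and the log2 difference was 1.14 ± 0.19 (SE, edgeR adjusted p = 0.0037), a 2.2-fold rise. OXTR, the oxytocin receptor, went from 7.15 and 7.62 CPM to 13.2 and 10.7 CPM, a log2 difference of 0.68 ± 0.12 (edgeR adjusted p = 0.0045). NTSR1, a neurotensin receptor, was near the lower limit of detection, at 0.640 and 0.901 CPM in uninduced cells and 1.93 CPM in each tracer library, with a log2 difference of 1.30 ± 0.28. In all 3 receptor genes the tracer libraries lay above both uninduced libraries, yet none of the 3 passed without the uninduced library of set 1.

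SLC17A7, a vesicular glutamate transporter (chr19:49932656-49945617), showed how unequal the sets could be. Its level was 1.81 and 0.857 CPM in uninduced cells, 9.26 and 1.85 CPM with the tracer, and 17.1 and 2.32 CPM with Dam-LaminB1 as well. The tracer library of set 1 was several times above all others of the 4, while that of set 2 barely exceeded the uninduced library of set 1. The log2 difference was 2.296 in set 1 and 1.032 in set 2, and the fitted value was 2.00 ± 0.30 (SE, edgeR adjusted p = 0.0095). It was 0.85 and did not pass without the uninduced library of set 1 (adjusted p = 0.76), and DESeq2 gave an adjusted p of 0.58.

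Other called genes with under 10 CPM and a rise of at least 1.5-fold in both pairs included GALNTL2, a polypeptide N-acetylgalactosaminyltransferase, FOXS1, a forkhead transcription factor, and UNC80, a subunit of a sodium leak channel. GALNTL2 had 0.907 and 0.496 CPM in uninduced cells and 2.07 and 1.36 CPM with the tracer (log2 difference 1.29 ± 0.30, edgeR adjusted p = 0.037). FOXS1 had 4.21 and 2.34 CPM, then 7.66 and 4.79 CPM (0.93 ± 0.17, edgeR adjusted p = 0.0076). UNC80 had 0.747 and 0.586 CPM, then 1.32 and 1.89 CPM (1.28 ± 0.32, edgeR adjusted p = 0.047). The groups did not overlap in any of these, as the rule that named them requires, and the differences rest on few reads. DESeq2 gave no adjusted p for GALNTL2 and UNC80 and did not call FOXS1 (adjusted p = 0.28). By limma-voom UNC80 did not pass (adjusted p = 0.074). Its log2 difference was 0.89 without the uninduced library of set 2.

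C1orf187, C4orf26, MUC6 and CARS-AS1, all under 4 CPM on average, also rose by at least 1.5-fold in both pairs. They are named after their values were seen. The groups overlapped for C4orf26 and MUC6 and not for C1orf187 and CARS-AS1. DESeq2 called none of these genes and gave no adjusted p for C1orf187 and CARS-AS1. By limma-voom CARS-AS1 did not pass (adjusted p = 0.079). C1orf187 had the largest fitted fold of the called genes, 5.09, from 0.320 and 0.135 CPM in uninduced cells to 1.93 and 0.483 CPM with the tracer. Its log2 difference was 2.35 ± 0.44 (edgeR adjusted p = 0.0074). The paired log2 differences were 2.07 and 1.04 for C4orf26, 0.75 and 0.97 for the mucin gene MUC6, and 1.16 and 1.87 for CARS-AS1, an antisense gene whose reads are uncertain because the use of strand is not stated.

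**Figure D2:**
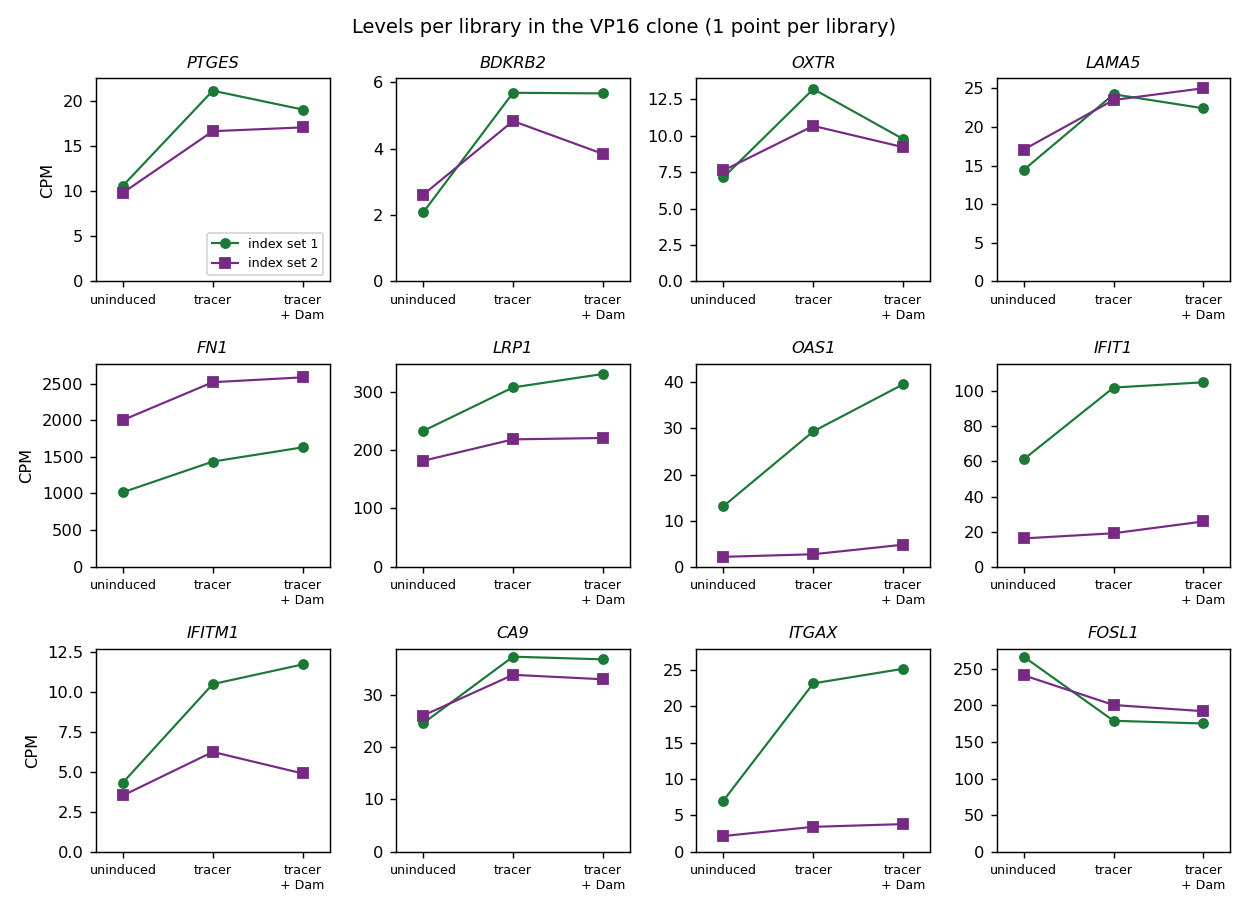
CPM in each library of the VP16 clone for 12 genes, with uninduced, tracer and tracer with Dam-LaminB1 libraries from left to right and lines joining libraries of the same index set (set 1 in green circles, set 2 in purple squares). OAS1, IFIT1 and ITGAX are several times higher in set 1 than in set 2 in every group, while PTGES, LAMA5, CA9 and FOSL1 are alike in both sets.

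The extracellular matrix and the receptors that hold on to it were represented by several genes. Of 38 matrix genes tested, 6 rose (COL1A1, FN1, HSPG2, LAMA5, LAMB2 and THBS2), or 15.8% against 0.793% of all genes, and none fell. Both pairs were above 0 for 27, or 71.1% against 30.9% of all genes. The list's median log2 difference was 0.10, at 0.13 in set 1 and 0.09 in set 2, against 0.00 over all genes tested. It was 0.07 without the uninduced library of set 1 and 0.16 without that of set 2.

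LAMA5, the laminin alpha 5 chain of basement membranes (chr20:60883011-60942368), was at 14.4 and 17.1 CPM in uninduced cells and 24.2 and 23.5 CPM with the tracer. The groups were clearly separate, and the rise was 1.51-fold (log2 0.60 ± 0.09, SE, edgeR adjusted p = 0.00099). FN1, which encodes fibronectin (chr2:216225163-216300895), had 1015 and 2001 CPM in uninduced cells and 1434 and 2518 CPM with the tracer. Its level in set 2 was higher than in set 1 throughout, so the groups overlapped while each pair rose, by 0.50 and 0.33 on the log2 scale. The fitted difference was 0.41 ± 0.06 (SE), with an adjusted p of 0.014 in edgeR, 1.514e-05 in DESeq2 and 0.154 in limma-voom.

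COL1A1, a chain of type I collagen, went from 9.49 and 10.9 CPM to 14.9 and 15.2 CPM (log2 0.56 ± 0.11, edgeR adjusted p = 0.013). THBS2, the matrix glycoprotein thrombospondin-2, rose from 105.3 and 112.3 CPM to 124.3 and 132.7 CPM, almost equally in both sets (0.24 and 0.24). LAMB2 and the perlecan gene HSPG2 rose by 0.24 ± 0.05 and 0.35 ± 0.09 on the log2 scale. Only LAMA5 and FN1 of the 6 passed without the uninduced library of set 1.

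Integrins are the cell's receptors for these matrix proteins. Of 22 integrin subunit genes tested, 5 rose, in a family picked out because of its calls, so that the count cannot be read against the 0.793% of all genes. ITGA3, a subunit that binds laminins, was among the most abundant genes named here, with 1945 and 1832 CPM in uninduced cells and 2189 and 2034 CPM with the tracer. That is a small shift of 0.16 ± 0.04 on the log2 scale (edgeR adjusted p = 0.045) with no overlap between the groups. The libraries with Dam-LaminB1 stood at 2001 and 1859 CPM, a log2 difference of 0.03 from uninduced cells. ITGA5, part of the fibronectin receptor, rose by 0.17 ± 0.04 and ITGB5 by 0.18 ± 0.04. The largest difference was in ITGAX (chr16:31366455-31394318), a subunit found mainly on myeloid cells, with 7.04 and 2.16 CPM in uninduced cells and 23.2 and 3.43 CPM with the tracer. Its groups overlapped because set 1 was higher throughout, and the fitted log2 difference was 1.46 ± 0.18 (SE, edgeR adjusted p = 0.002). It was 0.68 without the uninduced library of set 1 (adjusted p = 0.51), and DESeq2 gave an adjusted p of 0.45.

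Adhesion and guidance genes that passed included JUP and SEMA4B. JUP, which encodes plakoglobin of cell junctions (chr17:39775692-39943183), was at 25.5 and 26.5 CPM in uninduced cells and 34.6 and 35.0 CPM with the tracer. The 2 pairs were alike, at 0.44 and 0.40 on the log2 scale, and the libraries with Dam-LaminB1 stood at 40.1 and 40.8 CPM. SEMA4B, a transmembrane semaphorin (chr15:90703836-90772911), rose from 95.7 and 102.9 CPM to 126.7 and 125.4 CPM (log2 0.34 ± 0.05, SE, edgeR adjusted p = 0.00063). SEMA6B and SEMA6C also passed, so that 3 of the 16 semaphorin genes tested rose, beside 0.793% of all genes. This family too was chosen for its calls. SEMA6C was at 0.64, and at 0.38 when the uninduced library of set 1 was omitted. SEMA6B was at 0.19, and at 0.08 with Dam-LaminB1 against uninduced cells.

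Genes of other functions that rose included LRP1 and ATP13A2. LRP1, a large endocytic receptor (chr12:57522276-57607134), had 232.5 and 181.4 CPM in uninduced cells and 307.2 and 218.1 CPM with the tracer, a log2 difference of 0.33 ± 0.05 (edgeR adjusted p = 0.0011). ATP13A2, a lysosomal transport ATPase (chr1:17312453-17338423), went from 68.7 and 66.4 CPM to 104.5 and 81.4 CPM (0.45 ± 0.06, edgeR adjusted p = 0.00099). The groups overlapped for LRP1 and not for ATP13A2. NPC1, which exports cholesterol from lysosomes, rose by 0.20 ± 0.05 (0.11 and not passed without the uninduced library of set 1), and LIPG, the endothelial lipase, by 0.37 ± 0.06.

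Among the abundant genes with non-overlapping groups, the phosphate transporter SLC20A1 went from 678.7 and 806.7 CPM to 858.2 and 924.9 CPM (log2 0.27 ± 0.05, edgeR adjusted p = 0.006). NOTCH2, a receptor for Notch ligands, rose from 815.4 and 958.1 CPM to 1030 and 1046 CPM, by 0.23 ± 0.05 (0.12 and not passed without the uninduced library of set 1). The nuclear noncoding RNA MALAT1 had 212.6 and 220.8 CPM in uninduced cells and 257.1 and 249.7 CPM with the tracer (0.23 ± 0.04). All of these shifts are small, and of the 3 genes only SLC20A1 was also called by DESeq2. OSMR, the receptor for oncostatin M, PDLIM1, a cytoskeletal adaptor, and ATP2B4, a plasma membrane calcium pump, rose by 0.20, 0.19 and 0.24 on the log2 scale. The kinase gene CAMK1D, ANGPTL2, KLHL24, FAM213B and the membrane-bound metalloproteinase gene MMP17 stood between 8.37 and 19.6 CPM in uninduced cells and rose by 0.44 to 0.61 on the log2 scale. Without the uninduced library of set 1 FAM213B was at 0.40, and without the tracer library of set 2 KLHL24 was at 0.28, and neither passed.

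Interferon-stimulated genes form the antiviral program that interferons switch on through STAT and IRF factors. Of the 44 genes of that list, all of which were tested, 9 rose and none fell, or 20.5% against 0.793% of all genes: IFI27, IFIT1, IFITM1, IFITM3, MX2, OAS1, RSAD2, SAMD9L and USP18. The fitted difference was above 0 for 43 of 44 genes, and 33 were above 0 in both pairs. The median log2 difference was 0.49 in set 1 but 0.13 in set 2, and 0.35 in the fit. The summed level of the list was higher in set 1 than in set 2 before induction already, at 2318 and 1445 CPM in the uninduced libraries. Whether that higher starting level has a part in the larger change was not tested.

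OAS1, a sensor of double-stranded RNA (chr12:113344582-113369991), had 13.1 and 2.12 CPM in uninduced cells, 29.4 and 2.68 CPM with the tracer and 39.6 and 4.76 CPM with Dam-LaminB1. The libraries of set 1 were several times above those of set 2, and the groups overlapped. The log2 difference was 1.16 in set 1 and 0.33 in set 2, with a fitted value of 1.02 ± 0.13 (SE, edgeR adjusted p = 0.00063). IFIT1, an inhibitor of viral translation, followed the same layout, with 61.2 and 16.1 CPM before and 102.2 and 19.03 CPM after induction (0.57 ± 0.10, edgeR adjusted p = 0.033). Annotated IFIT1 overlaps the annotated span of LIPA, a lysosomal lipase gene that also rose, by 0.25 ± 0.06, and reads in the shared stretch are uncertain.

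IFITM1, a membrane protein that blocks virus entry, was the interferon gene whose groups stood apart, at 4.32 and 3.52 CPM in uninduced cells and 10.5 and 6.24 CPM with the tracer. Its log2 difference was 1.07 ± 0.18 (SE, edgeR adjusted p = 0.006). MX2, a GTPase that restricts retroviruses, was at 9.12 and 1.80 CPM and then 19.2 and 2.72 CPM, with overlapping groups and a log2 difference of 0.97 ± 0.15. IFITM3, a relative of IFITM1, went from 154.6 and 131.8 CPM to 187.4 and 147.1 CPM (0.22 ± 0.05, edgeR adjusted p = 0.029).

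RSAD2, the antiviral enzyme viperin, rose by 0.46 ± 0.10 on the log2 scale, USP18, which removes ISG15 from proteins, by 0.97 ± 0.21, and SAMD9L by 0.38 ± 0.09, each with overlapping groups and a larger change in set 1. IFI27 did not move the same way in both pairs: it had 6.67 and 0.766 CPM in uninduced cells and 12.6 and 0.659 CPM with the tracer, so it was higher in set 1 and slightly lower in set 2. Without the uninduced library of set 1 its difference was -0.22 ± 0.44 (edgeR adjusted p = 0.9995).

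The calls of the whole list depended on the libraries of set 1. Without the uninduced library of set 1, none of the 9 interferon genes passed and the list's median was 0.12, with OAS1 at 0.54, IFITM1 at 0.68, MX2 at 0.42, USP18 at 0.62, SAMD9L at 0.19 and IFITM3 at 0.14; without the tracer library of set 1, IFITM1 and MX2 passed while OAS1 was at 0.57, IFIT1 at 0.28, USP18 at 0.45, RSAD2 at 0.14, SAMD9L at 0.23 and IFI27 at 0.39, and without the tracer library of set 2, 8 of 9 did. All 9 passed without the uninduced library of set 2, with a median of 0.52. By limma-voom all 9 passed and by DESeq2 3 did, namely IFIT1, IFITM1 and OAS1.

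Promoters were inspected for short motifs, taken 250 bases before to 50 bases after the RefSeq start of each gene (GRCh38.p14). A promoter was found for 97 of the 128 genes that rose, for 7 of the 11 that fell and for 11190 of the genes tested. The letters GAAA, any 2 bases and GAAA again, on either strand and in this spacing, the core of the element through which interferon acts, were in 4 of the 7 called interferon genes with a promoter, in 6.19% of the genes that rose, in 2.82% of the genes tested and in 3.65% of 27305 RefSeq promoters. Windows of 60 bases around the match are shown for those 4 genes because their changes were described above, with the match in capitals on the gene's strand. They lie at chr14:94110603-94110662 on the plus strand for IFI27, chr10:89392482-89392541 on the plus strand for IFIT1, chr11:313975-314034 on the plus strand for IFITM1 and chr11:320878-320937 on the minus strand for IFITM3.
IFI27: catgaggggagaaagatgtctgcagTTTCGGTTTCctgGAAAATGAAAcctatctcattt
IFIT1: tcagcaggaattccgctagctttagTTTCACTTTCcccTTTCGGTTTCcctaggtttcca
IFITM1: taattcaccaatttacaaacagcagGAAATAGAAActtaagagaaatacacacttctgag
IFITM3: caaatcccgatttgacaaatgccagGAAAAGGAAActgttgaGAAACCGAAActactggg

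The 4 letters GATC, which the tracer can bind only once their adenine is methylated, were in 57.7% of the promoters of genes that rose, in 38.9% of those of the genes tested and in 41.7% of all RefSeq promoters. Of the 7 promoters of genes that fell, 1 held GATC. No Dam-LaminB1 was induced in these cells, and whether any of these sites was methylated was not measured. The octamer-related letters TAATGAAAT or TAATGAGAT, which herpes simplex virus uses in the genes that its own VP16 turns on, were in none of the 97 promoters and in 0.179% of those tested. AP-1 sites, TGACTCA, were in 8.25% against 3.47%, TATAAA in 6.19% against 5.97% and GGGCGG in 60.8% against 68.2%.

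Targets of hypoxia-inducible factor (HIF), the transcription factor that answers low oxygen, and glycolytic enzymes gave 6 genes that rose among 33 tested (ALDOC, BNIP3L, CA9, DDIT4, P4HA1 and SLC2A3), or 18.2% against 0.793% of all genes, and none that fell. The list's median log2 difference was 0.11 in set 1 and 0.08 in set 2. CA9, the carbonic anhydrase that is widely used as a marker of HIF activity (chr9:35673853-35681156), had 24.6 and 26.1 CPM in uninduced cells and 37.3 and 33.8 CPM with the tracer. Its groups did not overlap, and the rise was 1.4-fold (log2 0.48 ± 0.07, SE, edgeR adjusted p = 0.0014). ALDOC, an aldolase, rose from 86.6 and 73.3 CPM to 118.9 and 86.3 CPM (0.35 ± 0.06, edgeR adjusted p = 0.0024), with a slight overlap between the groups.

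The glucose transporter gene SLC2A3 rose from 37.4 and 37.9 CPM to 50.5 and 45.0 CPM (log2 0.34 ± 0.07). DDIT4, an inhibitor of mTORC1 that responds to hypoxia and to other stresses, had 12.6 and 13.0 CPM before and 20.2 and 15.4 CPM after induction (0.46 ± 0.10). P4HA1, a collagen prolyl hydroxylase, and BNIP3L, a receptor for the removal of mitochondria, rose by 0.30 ± 0.06 and 0.22 ± 0.05. Without the uninduced library of set 1 none of the 6 passed, with DDIT4 at 0.31, SLC2A3 at 0.22, P4HA1 at 0.19 and BNIP3L at 0.13, and without the tracer library of set 1 only CA9 did.

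The core of the HIF element, ACGTG on either strand, was in the promoters of all 4 of these genes that had one. It was in 16.5% of the promoters of all genes that rose, in 26.4% of those tested and in 21.6% of all RefSeq promoters. Each window of 60 bases below has the match in capitals and stands beside the values above. They lie at chr17:28577086-28577145 (minus) for ALDOC, chr9:35673882-35673941 (plus) for CA9, chr10:72273771-72273830 (plus) for DDIT4 and chr10:73096921-73096980 (minus) for P4HA1, in GRCh38.p14.
ALDOC: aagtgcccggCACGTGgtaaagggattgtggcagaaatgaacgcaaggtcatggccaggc
CA9: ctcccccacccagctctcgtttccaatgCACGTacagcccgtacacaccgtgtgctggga
DDIT4: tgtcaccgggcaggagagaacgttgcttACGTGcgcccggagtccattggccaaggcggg
P4HA1: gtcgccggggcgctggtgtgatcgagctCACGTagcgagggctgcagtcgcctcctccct

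Only 11 genes fell. FOSL1, which encodes the AP-1 subunit Fra-1 (chr11:65659490-65668044), fell from 266.6 and 241.2 CPM in uninduced cells to 179.0 and 200.6 CPM with the tracer. Both tracer libraries were below both uninduced ones, as were the libraries with Dam-LaminB1, at 175.3 and 192.1 CPM. The log2 difference was -0.42 ± 0.07 (SE, edgeR adjusted p = 0.029), or -0.27 without the uninduced library of set 1. FOSL1 was the only gene of the 30 immediate-early genes tested that passed, or 3.33% against the 0.0682% of all genes that fell. The list as a whole did not fall, with a median log2 difference of 0.04. Both pairs were above 0 for 14 of its genes and below 0 for 8, against 30.9% and 29.7% of all genes.

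RGS20, a regulator of G-protein signalling, went from 20.8 and 15.5 CPM to 13.8 and 12.8 CPM, by -0.44 ± 0.10 on the log2 scale (edgeR adjusted p = 0.028). AMIGO2, an adhesion protein, fell from 276.7 and 306.3 CPM to 223.1 and 272.9 CPM (-0.24 ± 0.05, edgeR adjusted p = 0.017). Its libraries with Dam-LaminB1 stood at 269.8 and 282.7 CPM, a log2 difference of -0.08 from uninduced cells. Without the tracer library of set 1 RGS20 was at -0.29 and AMIGO2 at -0.15, and neither passed. MEPCE, the enzyme that caps 7SK RNA, and MSANTD3 fell by 0.20 and 0.24 on the log2 scale, with separate groups in both.

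Both subunits of ferritin, the iron store of the cell, fell. FTH1 was at 148.3 and 97.6 CPM in uninduced cells and 123.5 and 81.6 CPM with the tracer, a log2 difference of -0.26 in each pair (fitted -0.26 ± 0.05, SE, edgeR adjusted p = 0.0053). FTL fell by 0.17 ± 0.04 on the log2 scale, and with Dam-LaminB1 its log2 difference from uninduced cells was -0.08. The groups overlapped in both genes because set 1 was higher. DESeq2 called neither of them (adjusted p = 0.16 for FTH1 and 0.37 for FTL). After the libraries were corrected for GC content and length, FTL did not pass. NPM1, which encodes the nucleolar protein nucleophosmin, went from 1089 and 1078 CPM to 942.6 and 971.1 CPM, by -0.18 ± 0.04 (edgeR adjusted p = 0.044; -0.12 and not passed without the uninduced library of set 1), with separate groups. FTH1, FTL and NPM1 have many near-identical pseudogene copies, and how reads were divided among them is uncertain.

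**Figure D3:**
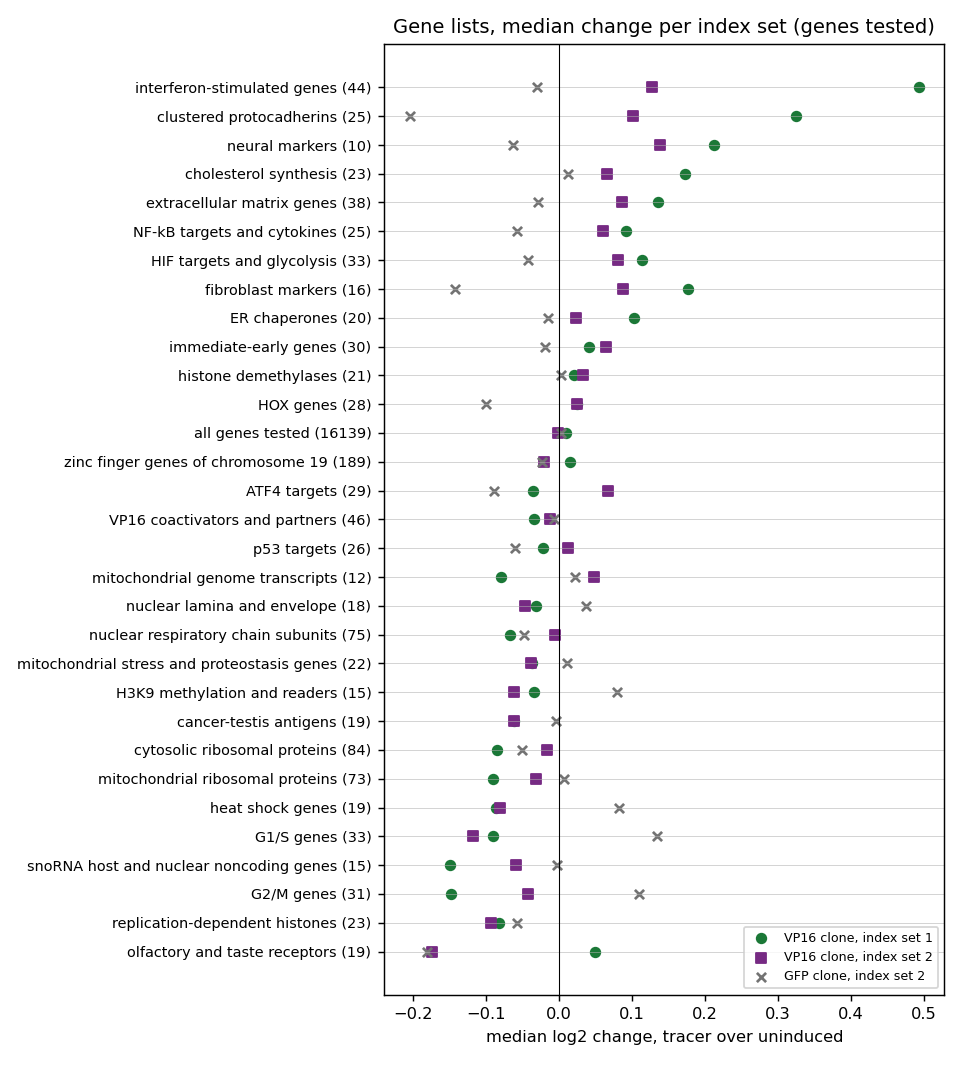
Median log2 difference between tracer and uninduced libraries for each gene list with at least 10 genes tested (their number in brackets), in index set 1 (green circles) and set 2 (purple squares) of the VP16 clone and in set 2 of the GFP clone (grey crosses). Interferon-stimulated genes lie farthest to the right in set 1, at 0.49, and the G1/S and G2/M lists lie left of 0 in the VP16 clone and right of 0 in the GFP pair of set 2.

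Genes of the cell cycle had differences slightly below 0, and none of them passed edgeR's test, DESeq2 or limma-voom. All 31 G2/M genes tested had a fitted difference below 0 and 27 were below 0 in both pairs; the median was -0.11, at -0.15 in set 1 and -0.04 in set 2, and 14 had an unadjusted p under 0.05. Of 33 G1/S genes, 31 were below 0 in the fit and 26 in both pairs, with a median of -0.10 and 13 at an unadjusted p under 0.05, while 29.7% of all genes tested were below 0 in both pairs. CDK1, the kinase that drives entry into mitosis, was at 120.2 and 122.0 CPM in uninduced cells and 101.8 and 112.4 CPM with the tracer (-0.18 ± 0.06, edgeR adjusted p = 0.17). TYMS, thymidylate synthase, was at 99.3 and 102.3 CPM and then 88.2 and 91.6 CPM (-0.16 ± 0.05, edgeR adjusted p = 0.14). Leaving out the uninduced library of set 1 took the G2/M median to -0.03 and the G1/S median to -0.06, and leaving out that of set 2 took the G2/M median to -0.17. With only the 4 libraries compared in the fit, 9 of the G2/M genes and 8 of the G1/S genes passed, all lower.

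Cytosolic ribosomal protein and heat shock genes also lay slightly below 0. Cytosolic ribosomal proteins had a median of -0.05 with 79 of 84 genes below 0 in the fit and heat shock genes a median of -0.07 with 17 of 19 below 0. No gene of these lists was called by edgeR, DESeq2 or limma-voom, and 8 and 6 of them had an unadjusted p under 0.05 in edgeR. HSPA8, the constitutive cytosolic HSP70, was at 3546 and 3261 CPM in uninduced cells and 3224 and 2855 CPM with the tracer (log2 -0.16 ± 0.05, edgeR adjusted p = 0.13). The ribosomal protein median was -0.01 without the uninduced library of set 1 and -0.09 without that of set 2.

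Clustered protocadherins, neural adhesion genes read from alternative promoters, lay on the other side of 0. Of 25 tested, 24 had a fitted difference above 0 and 14 were above 0 in both pairs, or 56% against 30.9% of all genes. Only PCDHGC3 passed, or 4% against the 0.793% of all genes that rose. The median was 0.27 in the fit, 0.32 in set 1 and 0.10 in set 2. PCDHGC3 rose from 74.5 and 98.7 CPM to 94.7 and 113.5 CPM (0.27 ± 0.05, edgeR adjusted p = 0.015). Its groups overlapped, and DESeq2 did not call it (adjusted p = 0.28). The log2 difference of PCDHGC3 was 0.18 without the uninduced library of set 1. Members of the gamma cluster share their last exons, so reads of one cannot be cleanly separated from reads of another. The list's median was 0.15 without the uninduced library of set 1. Cholesterol synthesis genes had 1 of 23 called, FDFT1 (squalene synthase), at 0.19 ± 0.05, or 4.35% against 0.793% of all genes. DESeq2 and limma-voom did not call FDFT1. The median of that list was 0.14, and 0.09 without the uninduced library of set 1. Both pairs were above 0 for 18 of its genes, or 78.3% against 30.9% of all genes.

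Stress and signalling lists gave 2 calls. Of 29 ATF4 targets, DDIT4 and VLDLR rose, or 6.9% against 0.793% of all genes, and the list's median was 0.00. None of 26 p53 targets (5 with an unadjusted p under 0.05), 25 NF-kB targets (3) or 20 ER chaperones (3) passed with edgeR, DESeq2 or limma-voom. The NF-kB list had a median of 0.09 with 14 genes above 0 in both pairs and 4 below, and the ER chaperones one of 0.04 with 12 above and none below, while over all genes 30.9% were above and 29.7% below. VLDLR, the very low density lipoprotein receptor, was at 23.7 and 35.0 CPM in uninduced cells and 31.1 and 44.0 CPM with the tracer, a log2 difference of 0.35 ± 0.08 (edgeR adjusted p = 0.036). Its groups overlapped because set 2 was higher. None of 75 nuclear respiratory chain subunits, 73 mitochondrial ribosomal proteins or 12 mitochondrial genome transcripts passed with any of these tools, and 4, 10 and 2 had an unadjusted p under 0.05 in edgeR. Both pairs were below 0 for 37, 43 and 3 of them, or 49.3%, 58.9% and 25% against 29.7% of all genes.

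Genes tied to the tracer's partners did not pass edgeR's test, DESeq2 or limma-voom. None of the 46 genes on the list of VP16 coactivators and partners did (median -0.01, 4 at an unadjusted p under 0.05), and none of the 18 nuclear lamina and envelope genes (median -0.02, 3 at an unadjusted p under 0.05). LMNB1, the lamin that is fused to Dam in this system, was at 162.6 and 184.1 CPM in uninduced cells and 150.6 and 177.8 CPM with the tracer. Its groups overlapped, and the log2 difference was -0.08 ± 0.07 (SE, edgeR adjusted p = 0.73). EHMT1 and EHMT2, the methyltransferases that place H3K9me2, a mark of lamina-associated chromatin, differed by -0.02 ± 0.05 (edgeR adjusted p = 0.93) and -0.07 ± 0.05 (0.59). None of 15 H3K9 methylation genes and none of 21 histone demethylase genes passed, and 4 and 2 had an unadjusted p under 0.05.

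Further lists covered developmental, germline and repeated gene families and markers of other cell types. None of 28 HOX genes, 189 zinc finger genes of chromosome 19, 19 olfactory and taste receptors, 23 replication-dependent histones or 19 cancer-testis antigens tested passed with edgeR, DESeq2 or limma-voom, and 1, 4, 2, 3 and 2 of them in that order had an unadjusted p under 0.05 in edgeR. Of 10 neural markers NOS1 rose, or 10% against 0.793% of all genes. It was at 57.1 and 78.2 CPM in uninduced cells and 72.8 and 90.7 CPM with the tracer (0.28 ± 0.05). Its groups overlapped, and DESeq2 did not call it (adjusted p = 0.28). The log2 difference of NOS1 was 0.21 without the uninduced library of set 1. Of 6 blood markers CD68 and ITGAX rose, or 33.3%, and both lay higher in set 1. The other 12 of the 18 blood genes listed, PTPRC, CD3E and SPI1 among them, were too low to be tested. The summed level of the tested blood markers was 720.5 and 541.3 CPM in uninduced cells and 787.9 and 546 CPM with the tracer, and its part in any result was not tested. The groups overlapped for CD68, with 253.7 and 165.8 CPM before and 323.6 and 184.7 CPM after induction (0.25 ± 0.05; 0.14 and not passed without the uninduced library of set 1).

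Apart from any test, 126 genes were higher by at least 1.5-fold in both pairs (0.781% of genes tested) and 50 were lower (0.31%), while 88 differed by that much in opposite directions. Most of these genes were barely expressed: 90 of the 126 and 44 of the 50 had a mean under 1 CPM over the 4 libraries. With a larger prior count of 5 the numbers were 74, 19 and 47, with a smaller one of 0.5 they were 165, 70 and 146, and with a stricter count filter 58, 7 and 21. Of the 126, 14 passed edgeR's test; of the 50, none did. At least 2 CPM and no call applied to 9 of the 126, listed here after their values were seen: APBA1, DUSP18, EVI5L, NES, NR4A1, PCOLCE, TMEM229B, VWA5A and VWA7.

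NR4A1, an orphan nuclear receptor of the immediate-early class, was at 3.20 and 2.61 CPM in uninduced cells and 6.77 and 4.04 CPM with the tracer (log2 0.87 ± 0.21, edgeR adjusted p = 0.07). NES, the intermediate filament protein nestin, was at 1.44 and 1.62 CPM and then 2.91 and 2.72 CPM (0.87 ± 0.22, edgeR adjusted p = 0.06). PCOLCE, an enhancer of procollagen processing, was at 2.19 and 2.93 CPM and then 3.48 and 4.75 CPM (0.68 ± 0.18, edgeR adjusted p = 0.07). In each of these the tracer libraries were above both uninduced libraries, and none of the 3 passed.

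Transcripts of the genes that rose were longer and richer in GC at the median than those of all genes tested. The median length of the longest transcript was 4393 bases for the 128 genes and 3274 for all genes tested, and the median GC content was 53.92% and 48.25%. In settings added after the data were seen, correcting each library for GC content and length left 99 genes that passed, 93 of them among the 139, and thinning all libraries to the total of the shallowest, the uninduced library of set 1, left 67, 65 of them among the 139.

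The GFP clone went through the same withdrawal of doxycycline with a tracer that carries GFP. Its pair of set 1 stood apart. The median log2 difference in that pair was 2.05 for ATF4 targets and -1.30 for G1/S genes, against -0.09 and 0.13 in set 2. DDIT4 was at 12.47 and 22.66 CPM in the uninduced libraries and at 159.7 and 15.65 CPM in the tracer libraries. The tracer library of set 1 also enters the fits over all 12 libraries and the test of the difference between the clones. The median SE over genes was 0.2132 with all 12 libraries and the block, and 0.08952 in the main fit. In the GFP pair of set 2, 30 of the 128 genes that rose in the VP16 clone were above 0, against 50.7% of all genes tested, and 8 of the 11 that fell. The median difference of the 128 genes in that pair was -0.11, and it was 0.09 for the 11. In the GFP pair of set 1, 93 of 128 were above 0, against 50.5% of all genes.

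PTGES differed in the GFP clone by 0.77 in set 1 and 0.03 in set 2, LAMA5 by 0.20 and -0.24, and CA9 by -0.01 and -0.24. BDKRB2 differed by 1.44 and -0.90, in opposite directions, and FOSL1 by -0.02 and 0.21. MX2 differed by 0.78 and 0.86. Both GFP pairs were above 0 for 17 of the 128 genes, against 22.4% of all genes tested. These pairs have no error of their own.

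The test of the difference in response between the clones called 0 of 17262 genes (edgeR with the block over all 12 libraries), and 247 (1.43%) had an unadjusted p under 0.05. It also called 0 with DESeq2 (107 with an unadjusted p under 0.05), with limma-voom (250) and when any 1 of the 8 libraries compared was omitted (162 to 1272). None of the genes named here is therefore shown to respond differently in the VP16 clone and in the GFP clone. For PTGES the estimate was 0.42 ± 0.38 and for LAMA5 0.60, both with an adjusted p of 0.988.

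**Figure D4:**
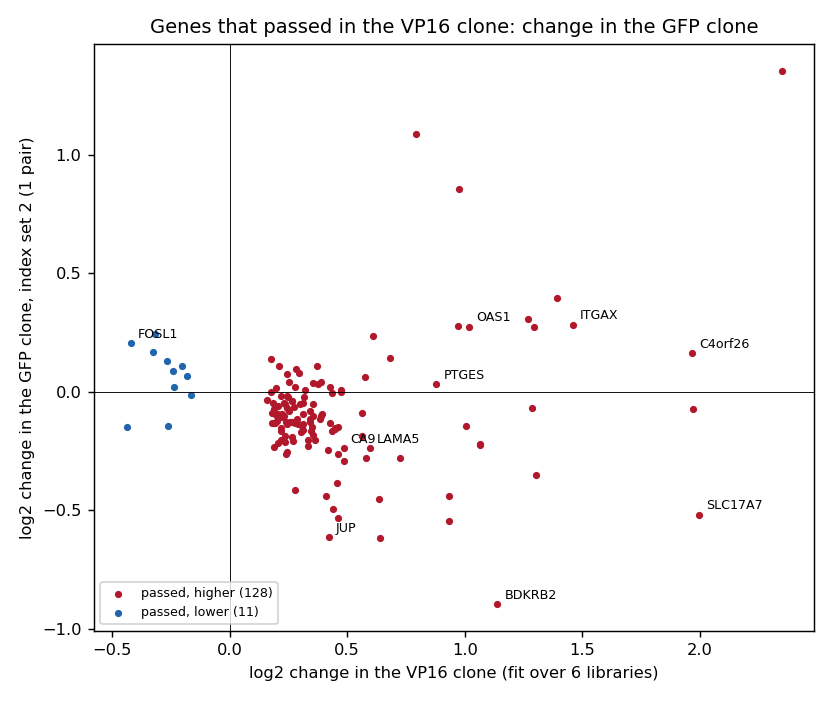
Fitted log2 difference in the VP16 clone (horizontal axis) against the difference in the single GFP pair of index set 2 (vertical axis), for the 139 genes that passed in the VP16 clone (128 higher in red, 11 lower in blue). Most red points lie below 0 on the vertical axis, and 30 of 128 lie above it.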

How the data were processed

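The deposited data are raw counts of reads for each Ensembl gene, with GRCh37 positions, and the columns of all 12 libraries were assigned by name. Per the submitters' processing notes, TopHat 1.4.0, Bowtie 0.12.7, HTSeq and GRCh37 were used; the strand setting is not given in the sources used here, so antisense and overlapping genes are uncertain. Library totals are given in the report, and replicate libraries differed by far more than sampling noise (chi-square per degree of freedom 20.86 and 21.91).

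Of 36502 genes, 16139 passed filterByExpr over the 6 libraries of the VP16 clone. Counts were scaled by TMM and fitted with edgeR 4.0.16 (quasi-likelihood, robust) in R 4.3.3, with 1 coefficient per group (3 groups) and the index set as a block, and adjusted by Benjamini-Hochberg at 0.05. CPM are TMM-scaled; paired differences are of log2 CPM with a prior count of 2. SE is the log2 difference divided by the square root of F. The pairing comes from the titles, and libraries of the same set deviated together (correlations 0.672 to 0.701 over the group pairs). On simulated counts of 15839 genes for this comparison, the fit with the block recovered 27 of 50 genes changed 1.25-fold, 39 at 1.5-fold, 46 at 2-fold and 49 at 4-fold with 10 false calls. Without the block it recovered 0, 0, 11 and 22 with 0 false calls. Those counts were drawn from the fitted block model itself, with the same change in both sets. They therefore cannot show whether the block suits the real libraries, where 112 of the 128 genes that rose changed more in set 1.

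Named genes are those called with the same sign in both pairs, separate groups and at least 1 CPM (up to 20 per direction by the smaller paired change and 8 by level), called members of gene lists, up to 3 members per list, LMNB1, EHMT1 and EHMT2; others are said to be chosen after their values were seen. The comparison, lists and fit were chosen with earlier results of these data known. limma 3.58.1 and DESeq2 1.42.0 gave alternatives. Promoters are from RefSeq (GRCh38.p14).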

Additional observations from a re-analysis of the deposited data

Results flagged for a closer look

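For 13 of the genes described, both pairs of the VP16 clone moved one way and both pairs of the GFP clone the other. Of the 128 genes that rose, 22 were below 0 in both GFP pairs, against 21.2% of all genes tested. The difference in response (log2, VP16 minus GFP clone) was 1.206 for OLFML3, 0.6567 for SEMA4B, 0.6508 for CA9, 0.5751 for PCDHGC3, 0.532 for FDFT1, 0.5122 for NOS1, 0.4782 for MMP17, 0.4755 for APOL1, 0.3459 for SEMA6B, 0.3139 for BNIP3L and 0.2621 for ATP2B4. It was -0.5895 for AMIGO2 and -0.3038 for MSANTD3. The difference itself was tested in edgeR over all 12 libraries, and none of the 13 passed (adjusted p = 0.9882). OLFML3, which encodes a secreted olfactomedin-like protein, had 3.09 and 1.397 CPM in uninduced cells of the VP16 clone and 7.57 and 2.11 CPM with the tracer, and the 2 GFP pairs were at -0.17 and -0.22.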

How the results depend on the processing

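The number of genes called against uninduced cells (139, of which 128 higher and 11 lower) moved most with the block and the libraries in the fit. It was 0 (0 higher and 0 lower) with no replicate block, with all 12 libraries and the block, and with all 12 libraries and no block. It was 838 (611 and 227) with only 4 libraries, 396 (326 and 70) with no count filter, 89 (82 and 7) with no robust estimation and 21 (20 and 1) with DESeq2. Leaving out 1 library gave 22 to 813 calls (14 to 591 higher, 8 to 222 lower): lowest without the uninduced library of set 1 and highest without a Dam-LaminB1 library. Of the calls, 92.1% were higher in the main result, 72.9% with only 4 libraries, 72.7% without either Dam-LaminB1 library, 75.4% without the uninduced library of set 2 and 63.6% without that of set 1. Settings chosen after seeing the data gave 99 calls with a correction for GC content and length, 67 (62 and 5) with thinned libraries and 53 (50 and 3) among genes of at least 10 CPM. RLE scaling gave 137 calls, limma-voom 115 and a stricter filter 129. All 139 genes had the same sign in every setting that tested them except IFI27, which ranged from -0.2228 without the uninduced library of set 1 to 0.9148 without that of set 2; LMNB1, which did not pass, ranged from 0.02339 to -0.1855 with the same libraries left out. Of 94 called genes with values in the text or named by the rule, 11 passed without that library, 28 without the tracer library of set 1 and 51 without that of set 2, and 19 of 88 given an adjusted p by DESeq2 passed. Genes higher and lower by 1.5-fold in both pairs numbered 126 and 50, 74 and 19 with a prior count of 5, 58 and 7 with the stricter filter, and 17 and 7 at 2-fold. Under 10 CPM, where few reads stand behind a value, were 23 of the 128 and 40.8% of all genes tested. The cause of these dependences was not tested.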

Other observations

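Several genes outside the lists rose mostly through index set 1. SMPDL3B, a phosphodiesterase related to acid sphingomyelinase, had 4.80 and 2.12 CPM in uninduced cells and 11.5 and 2.90 CPM with the tracer (log2 1.005 ± 0.17, SE, edgeR adjusted p = 0.0036). BMP2, a bone morphogenetic protein, had 1.33 and 0.721 CPM and then 4.04 and 1.10 CPM (1.27 ± 0.27, edgeR adjusted p = 0.024). DES, the muscle intermediate filament protein desmin, had 0.853 and 0.361 CPM and then 2.77 and 0.527 CPM (1.39 ± 0.33, edgeR adjusted p = 0.044). In all 3 the tracer library of set 1 was the highest of the 4 and the groups overlapped, and without the uninduced library of set 1 the values were 0.56, 0.54 and 0.68 and none of the 3 passed; without the tracer library of set 1 DES was at 0.92 and did not pass. CHGB, the secretory granule protein chromogranin B, moved alike in both sets, by 0.63 and 0.62, from 5.28 and 3.06 CPM to 8.22 and 4.75 CPM. Its groups overlapped as well, and it passed with edgeR (adjusted p = 0.042) but not with DESeq2 (adjusted p = 0.87). TXNIP, an inhibitor of thioredoxin, rose by 0.49 ± 0.09 (edgeR adjusted p = 0.0053). These genes were chosen after their values were seen.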
